A study of Drosophila melanogaster with 20 samples.

Results

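The genes described here encode the nuclear subunits of respiratory complexes II, III and IV and of ATP synthase in Drosophila melanogaster. They were chosen by symbol, as the probe sets that name 1 nuclear gene whose current symbol begins with Sdh, UQCR, Cyt-c1, COX or ATPsyn, with the probe set of the highest mean kept for each gene. Of 50 genes with such a symbol, 38 had a probe set of their own among the 14010 on the array. These were 7 genes of complex II, 6 of complex III, 11 of complex IV and 14 of ATP synthase. By their names, 24 were subunits, 13 were paralogs of a subunit (symbols ending in L or L2, called like paralogs below) and 1, Sdhaf3, was an assembly factor. The other 12 gave no value. SdhA, UQCR-C1, UQCR-C2, UQCR-11, UQCR-11L, UQCR-6.4L, COX6AL, COX6CL, COX7AL2 and COX7CL matched no probe set in the annotation used here, and ATPsynG and COX6B matched only probe sets that name several genes.

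Complex II, succinate dehydrogenase, passes electrons from the citric acid cycle to ubiquinone. Complex III passes them on to cytochrome c and complex IV gives them to oxygen, and both pump protons across the inner mitochondrial membrane. ATP synthase lets the protons flow back through a membrane ring of C subunits and uses the turning of its central stalk to make ATP at the beta subunits. MnSOD, encoded by Sod2, removes superoxide, a by-product of this chain, in the mitochondrial matrix. Many of the duplicated respiratory chain genes of Drosophila are known to be expressed mainly in testis.

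The study asked how transcription changes when extra MnSOD lengthens life. Total RNA from 30 pooled whole adult males per sample had been hybridized to 20 arrays, 4 for each of 5 groups. The MnSOD line was the progeny of the transgenic line MnSOD(2)22, which carries MnSOD under a doxycycline-dependent promoter, and the rtTA(3)E2 transactivator line, whose transactivator acts in all tissues. The control line was the progeny of Oregon R and the same transactivator line, so all 5 groups carried the transactivator. Doxycycline (DOX) in the food of adults turns the transgene on. The MnSOD line was sampled without DOX at day 73 (MnSOD -DOX) and with DOX at days 73 and 83 (MnSOD +DOX), and the control line without and with DOX (control -DOX and control +DOX). The food of every group also held ampicillin. Day 73 was near 50% survival of MnSOD -DOX flies and day 83 near 50% survival of MnSOD +DOX flies. The labels give day 73 for the control groups and the design text gives day 78. The MnSOD line is 1 insertion in 1 genetic background, and the control line lacks that insertion. The labels call the replicates biological without naming separate cultures, and the spread behind each p-value is that between these samples, which may be technical.

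Values are log2 expression values. A gene was called changed at an adjusted p under 0.01 with a fold of at least 1.2, in 1 limma fit over all probe sets and all 20 arrays. Sod2 was at 8.42, 8.36, 8.47 and 8.42 in MnSOD -DOX, at 12.57, 12.36, 12.61 and 12.42 with DOX at day 73 and at 12.24, 12.26, 12.24 and 12.22 at day 83. In the control line it was at 7.66, 7.38, 7.56 and 7.67 without DOX and at 8.14, 7.98, 8.07 and 7.59 with DOX. Every DOX array of the MnSOD line was thus above every array without DOX. Array medians lay between 5.49 and 5.68. In control +DOX, replicates 1 to 3 had spike-in means of 8.41, 7.98 and 8.09 against 9.69 in replicate 4 and 9.36 to 10.24 on the arrays of the other groups. Replicates 1 and 3 of control +DOX had 18S rRNA signals of 8.84 and 5.44, against 3.34 to 3.94 on all other arrays. MnSOD +DOX day 83 replicate 1 had the lowest median of all arrays, and limma gave it the lowest array weight, 0.18. As the samples were whole males, 10 spermatid markers of testis averaged 8.62 to 9.47 per array and 8 accessory gland markers 7.94 to 8.83. The 3 yolk protein genes, markers of female fat body, averaged 6.26 to 6.74.

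In the MnSOD line at day 73, all 38 genes had an estimate above 0 for +DOX against -DOX, while 0 were called. This comparison does not part DOX feeding from MnSOD induction. Over all probe sets, 49.5% had an estimate above 0 and 0.664% were called. At an unadjusted limma p under 0.05 there were 18 of the 38 genes and 10.2% of all probe sets. The median log2 change of the 38 genes was 0.17, against 0.00 over all probe sets, and their estimates ran from 0.00 for ATPsynbetaL to 0.45 for COX4L. For 21 of the 38 genes every +DOX array was above every -DOX array, and for 0 was every +DOX array below. Among all probe sets the shares with no overlap were 7.83% upward and 5.06% downward, against 55.3% and 0% of the 38 genes. The number of estimates above 0 was 36 to 38 when any 1 array was left out and 37 when each array was centred on its median.

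The medians by complex at day 73 were 0.15 for complex II, 0.14 for complex III, 0.20 for complex IV and 0.17 for ATP synthase. The 24 subunits had a median of 0.18 and the 13 like paralogs 0.17. Every +DOX array was above every -DOX array for 18 of the 24 subunits but 3 of the 13 like paralogs, against 7.83% of all probe sets. Estimates over all probe sets leaned upward with signal: from 9 to 10 on the log2 scale 69.9% of 362 probe sets were above 0, with a median of 0.10. The 12 of the 38 genes at that level had a median of 0.16. From 10 to 11, 72.6% of 157 probe sets were above 0, with a median of 0.12, and the 7 genes there had a median of 0.20. All of these 19 genes were above 0. From 6 to 8, where 10 of the 38 genes lie, 53.9% of 4271 probe sets were above 0, with a median of 0.01, while these 10 genes had a median of 0.24 and 10 of the 10 were above 0.

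**Figure D1:**
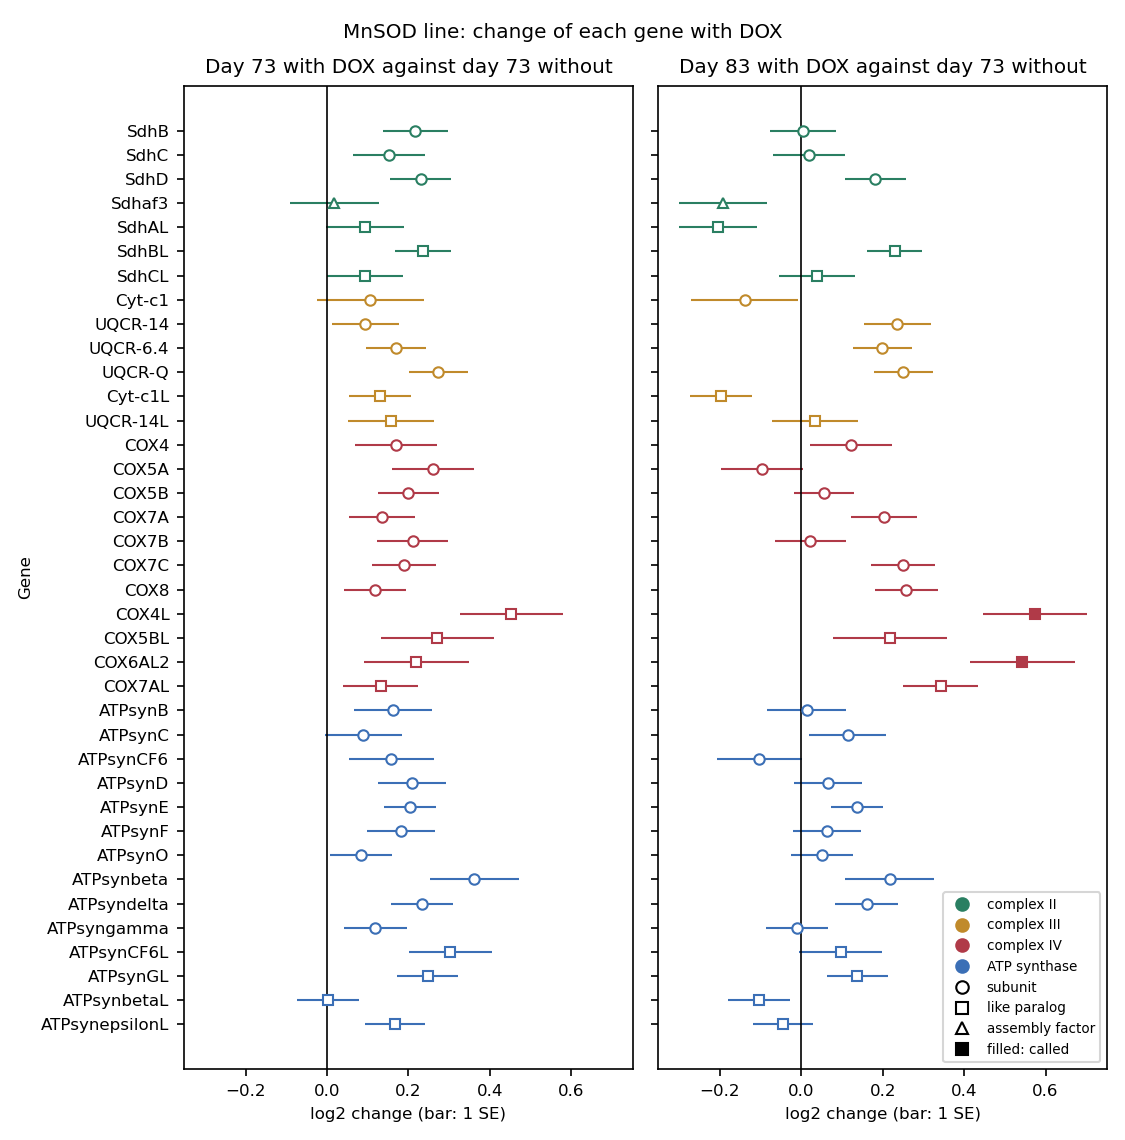
Log2 change with DOX in the MnSOD line (x axis, bar 1 standard error, 4 arrays per group) for each of the 38 genes (y axis), at day 73 on the left and day 83 on the right, both against the same 4 MnSOD -DOX arrays. At day 73 all 38 estimates lie at or above 0 with none called, and at day 83 the 2 filled symbols, COX4L and COX6AL2, are the called ones.

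In complex II the 3 subunits had larger estimates than the assembly factor at day 73. SdhB, the iron-sulfur subunit, was at 9.28, 9.37, 9.28 and 9.17 in MnSOD -DOX and at 9.53, 9.41, 9.51 and 9.51 in MnSOD +DOX at day 73. Its groups did not overlap, and its change was 0.22 (standard error 0.0806, adjusted p = 0.265). At day 83 SdhB was at 9.13, 9.23, 9.33 and 9.43, which spans the -DOX values. In control flies it was at 9.13, 8.99, 9.18 and 9.17 without DOX and at 8.95, 9.25, 9.17 and 8.94 with DOX. No SdhB contrast of the 7 was called, and the 4 day 73 +DOX arrays were above all 16 other arrays except MnSOD +DOX day 83 replicate 4. The membrane anchors SdhC and SdhD changed by 0.15 and 0.23 at day 73, below the call in both cases. Sdhaf3, which in yeast helps insert the iron-sulfur clusters of complex II, had 0.02.

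The like paralogs of complex II had estimates of both signs at day 83, none of them called. SdhBL, related to the iron-sulfur subunit, was at 7.59, 7.34, 7.36 and 7.54 in MnSOD -DOX. On the DOX arrays of the MnSOD line it was at 7.70, 7.68, 7.71 and 7.68 at day 73 and at 7.70, 7.66, 7.71 and 7.68 at day 83. All 8 DOX arrays of the MnSOD line were above all 4 without, with changes of 0.24 (adjusted p = 0.103) and 0.23 (adjusted p = 0.0203), neither of them called. SdhAL, related to the flavoprotein subunit, had 0.09 at day 73 and -0.21 at day 83, and SdhCL had 0.09 and 0.04. The low signal of Sdhaf3 and SdhCL put both in the lowest 40% of probe sets, as it did COX7C and COX6AL2.

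In complex III the largest estimates in the MnSOD line at both ages belonged to UQCR-Q, a small subunit. Its values were 10.72, 10.75, 10.68 and 10.73 in MnSOD -DOX, 11.07, 11.01, 10.98 and 10.91 with DOX at day 73, and 10.90, 10.87, 11.04 and 11.06 at day 83. The DOX arrays lay above all 4 arrays without DOX at each age, with changes of 0.27 (standard error 0.0721, adjusted p = 0.0635) and 0.25 (adjusted p = 0.0171). With only the 8 arrays of the day 73 comparison in the fit, UQCR-Q was called at adjusted p = 0.00682. In control flies UQCR-Q was at 11.14, 10.87, 10.83 and 10.97 without DOX and at 10.82, 10.82, 10.79 and 10.67 with DOX.

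The other complex III subunits were smaller at day 73. UQCR-6.4 and UQCR-14 changed by 0.17 and 0.09, and Cyt-c1, which carries the heme that hands electrons to cytochrome c, by 0.11. At day 83 UQCR-14, UQCR-6.4 and UQCR-Q lay 0.20 to 0.25 above MnSOD -DOX with no overlap, while Cyt-c1 had -0.14, and none of the 4 was called. Cyt-c1 also varied widely within groups, with 8.63, 8.91, 9.24 and 9.28 in control -DOX and 8.89, 9.22, 9.35 and 9.50 in MnSOD +DOX at day 83. The like paralogs Cyt-c1L and UQCR-14L had 0.13 and 0.16 at day 73, and -0.20 and 0.03 at day 83.

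For ATP synthase at day 73, 10 of 14 genes had every +DOX array above every -DOX array, 9 of them subunits. Among all probe sets this share was 7.83%. ATPsynbeta, the catalytic subunit, was at 7.03, 6.94, 7.04 and 7.08 in MnSOD -DOX and at 7.54, 7.41, 7.34 and 7.24 in MnSOD +DOX at day 73. The change of 0.36 (standard error 0.109, adjusted p = 0.124) was the largest of the 24 subunits, and it was called at adjusted p = 0.00336 with only these 8 arrays in the fit. At day 83 ATPsynbeta was at 7.19, 7.20, 7.34 and 7.23, again above every -DOX array, with a change of 0.22 (adjusted p = 0.16). ATPsynbeta and COX5A are genes the study itself picked out from these arrays, and their direction here is no separate evidence. The study picked them from changes corrected for DOX, whereas the changes here are direct. Their values with the change of control flies subtracted are given below.

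The stalk and membrane parts of ATP synthase followed at day 73 with smaller estimates, none of them called. ATPsyngamma and ATPsyndelta of the central stalk changed by 0.12 and 0.23. The peripheral stalk genes ATPsynB, ATPsynD, ATPsynCF6 and ATPsynO changed by 0.16, 0.21, 0.16 and 0.08, and ATPsynE and ATPsynF of the membrane part by 0.20 and 0.18. ATPsynC, the ring subunit, had 2 probe sets that disagreed in sign, 0.09 on the one kept and -0.08 on the other, neither called. Among the like paralogs, ATPsynCF6L had 0.30, ATPsynGL 0.25, ATPsynepsilonL 0.17 and ATPsynbetaL 0.00. At day 83 the 14 genes had a median of 0.06 with 0 called and ran from -0.10 to 0.22.

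**Figure D2:**
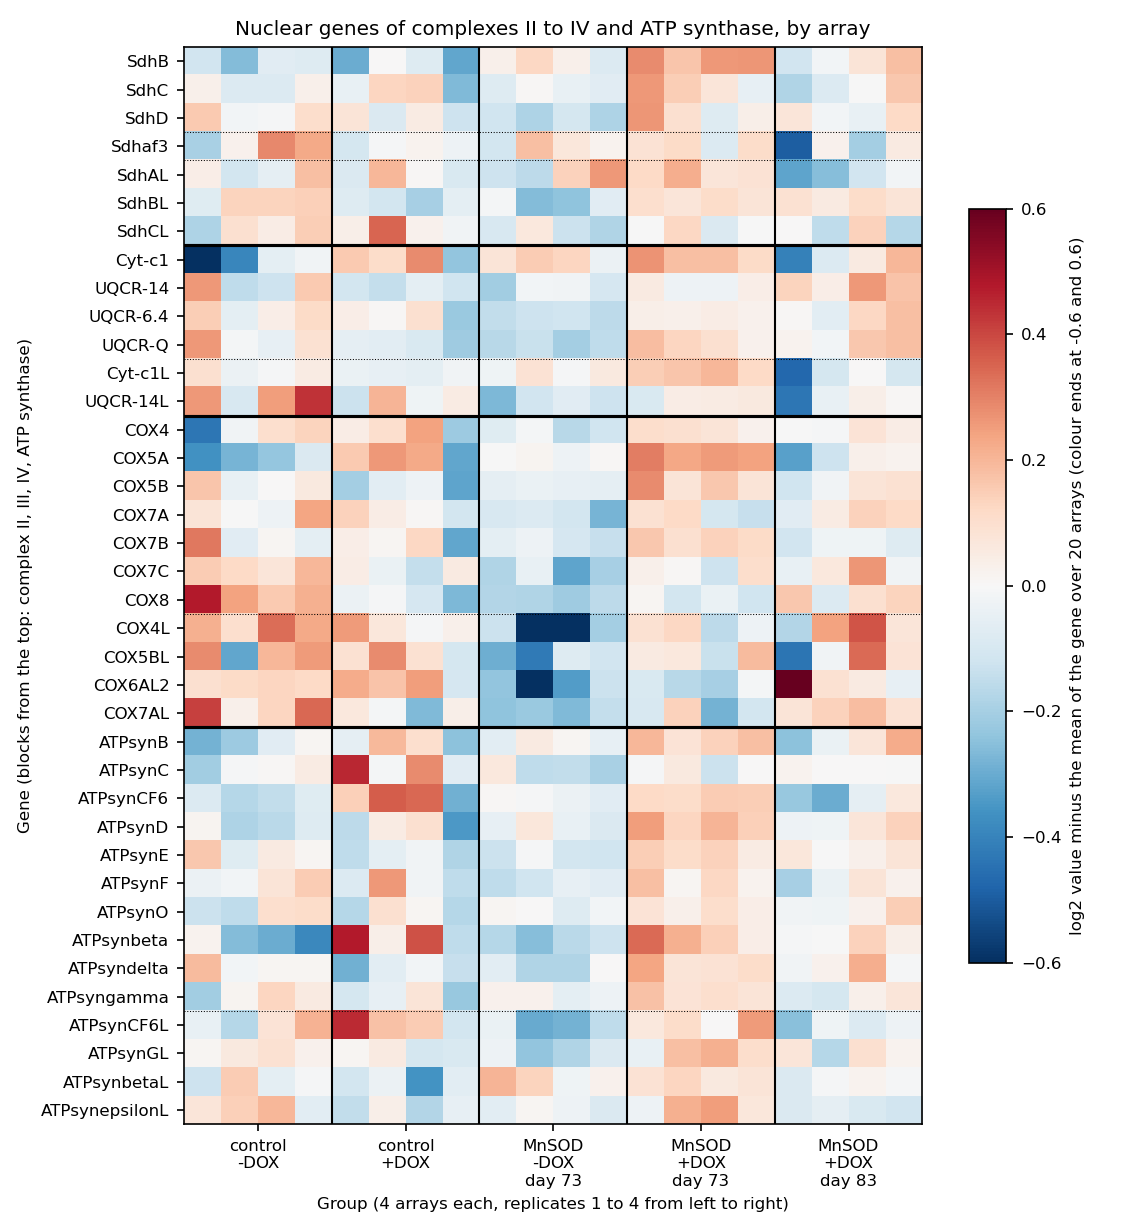
Log2 value of each of the 38 genes (rows, in blocks by complex) minus its own mean over 20 arrays, for each array (columns, in blocks of 4 by group), on a colour scale that ends at -0.6 and 0.6. In the MnSOD +DOX day 73 block 123 of 152 values are above the gene means, with COX6AL2 below on all 4 arrays. In the MnSOD -DOX block 121 of 152 values are below them, and in control -DOX 87 of 152 are above. The complex IV like paralogs are low in MnSOD -DOX, and MnSOD +DOX day 83 replicate 1 departs from replicates 2 to 4 in several rows.

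The median deviation over the 38 genes separated the day 73 groups array by array. On this scale, where 0 is the mean of each gene over 20 arrays, the 4 MnSOD -DOX arrays lay at -0.09 to -0.04 and the 4 MnSOD +DOX day 73 arrays at 0.07 to 0.11. The day 83 arrays ran from -0.07 to 0.07, with replicate 1, at -0.07, inside the range of MnSOD -DOX. Control arrays ran from -0.03 to 0.10 without DOX and from -0.13 to 0.03 with DOX. Medians of all probe sets on the same 8 day 73 arrays were 0.00 to 0.03, with no such separation.

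Related mitochondrial genes outside the symbol rule were counted in the same contrast. Of 6 other subunits of these complexes whose current symbols fall outside the rule (RFeSP, ox, levy, cype, blw and sun), 6 had an estimate above 0, with a median of 0.18. The 5 carrier and channel genes sesB, Ant2, Mpcp1, Mpcp2 and porin had a median of 0.18 and 7 citric acid cycle genes 0.22, with 5 of 5 and 7 of 7 above 0. Assembly factors were mixed, with 3 of 5 above 0 and a median of 0.06. None of these 23 genes was called at day 73. The 10 testis markers were also all above 0, with a median of 0.26 and 0 called. Of the 8 flight muscle markers 8 were above 0, with a median of 0.14, and of the 8 accessory gland markers 0 were, with a median of -0.18, and 0 of either list were called. Gut and neuron markers were mixed, with 5 of 11 and 2 of 4 above 0 and medians of -0.18 and -0.03. Among these, 1 gut marker was called higher. The part of these tissues in the result was not tested. In whole males, fewer cells of a type and less RNA per cell cannot be told apart.

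At day 83, 2 of the 38 genes were called against MnSOD -DOX, and both were like paralogs of complex IV. Both were higher. Of all probe sets 3.01% were called higher and 6.26% lower, against 5.26% and 0% of the 38 genes. The 38 genes had a median of 0.08 with 29 above 0, against -0.04 and 42.7% over all probe sets. For 12 of the 38, or 31.6%, every day 83 array was above every -DOX array, against 9.71% of all probe sets. Centring each array on its median moved every change of this contrast up by 0.07 and gave 6 calls, all higher.

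COX4L, a paralog of subunit 4 of cytochrome c oxidase, was at 6.97, 6.30, 6.46 and 6.90 in MnSOD -DOX and at 6.93, 7.34, 7.48 and 7.17 at day 83. The groups overlapped by 1 array on each side, and the change was 0.57 (standard error 0.127, adjusted p = 0.00309). On the day 73 DOX arrays COX4L was at 7.19, 7.23, 6.95 and 7.07, and in control flies at 7.31, 7.20, 7.44 and 7.33 without DOX and 7.36, 7.17, 7.09 and 7.13 with DOX. The call was lost without MnSOD -DOX replicate 2 or 3 or MnSOD +DOX day 83 replicate 2 or 3, with a change of at least 0.46 and an adjusted p of up to 0.0174. It was also lost with only the 8 arrays in the fit, at adjusted p = 0.0244.

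COX6AL2, a paralog of subunit 6A, was at 4.61, 4.20, 4.51 and 4.72 in MnSOD -DOX and at 5.58, 4.94, 4.90 and 4.80 at day 83. The groups did not overlap, and the change was 0.54 (standard error 0.128, adjusted p = 0.00505). Its highest value came from MnSOD +DOX day 83 replicate 1, the array with the lowest weight, and without that array the change was 0.37 at an adjusted p of 0.0277. The call was likewise lost without MnSOD -DOX replicate 2 or 3, and with only the 8 arrays in the fit, at adjusted p = 0.0347. COX6AL2 lies in the lowest 40% of probe sets, so the fit without these gives no value for it.

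The other 2 like paralogs of complex IV had the same sign at day 83 without a call. COX7AL, related to subunit 7A, was at 5.52, 5.54, 5.49 and 5.61 in MnSOD -DOX and at 5.84, 5.90, 5.95 and 5.85 at day 83, with no overlap, a change of 0.34 (standard error 0.0925) and an adjusted p of 0.0118. It was called when any of 5 arrays of other groups was left out (MnSOD +DOX day 73 replicate 2 or 3, control -DOX replicate 1 or 2, or control +DOX replicate 3) and with only the 8 arrays in the fit, at adjusted p = 0.00425. COX5BL had 0.22 (adjusted p = 0.276). The median of these 4 was 0.44, while the 9 like paralogs of complexes II and III and of ATP synthase ran from -0.21 to 0.23 with 0 called. No test compares the 4 with the 9.

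The 7 subunits of complex IV had a median of 0.12 at day 83, with 0 called. COX8 changed by 0.26 (adjusted p = 0.0204), COX7C by 0.25, COX7A by 0.20, COX4 by 0.12, COX5B by 0.06, COX7B by 0.02 and COX5A by -0.10. At day 73 these subunits had been between 0.12 for COX8 and 0.26 for COX5A. blw, the alpha subunit of ATP synthase, was the only 1 of the 6 other subunits called at day 83, higher by 0.27. Of the 10 spermatid markers 8 were called higher at this age, and the 10 had a median of 0.44 and ran from ProtB at 0.13 to Mst84Dc at 0.85. Of the 8 accessory gland markers 6 were called lower. Of 11 gut markers 5 were called lower and 1 higher. Of 4 neuron markers 1 was called lower, and of 8 flight muscle markers 1 was called higher. The part of these cell types in the COX4L and COX6AL2 values was not tested.

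**Figure D3:**
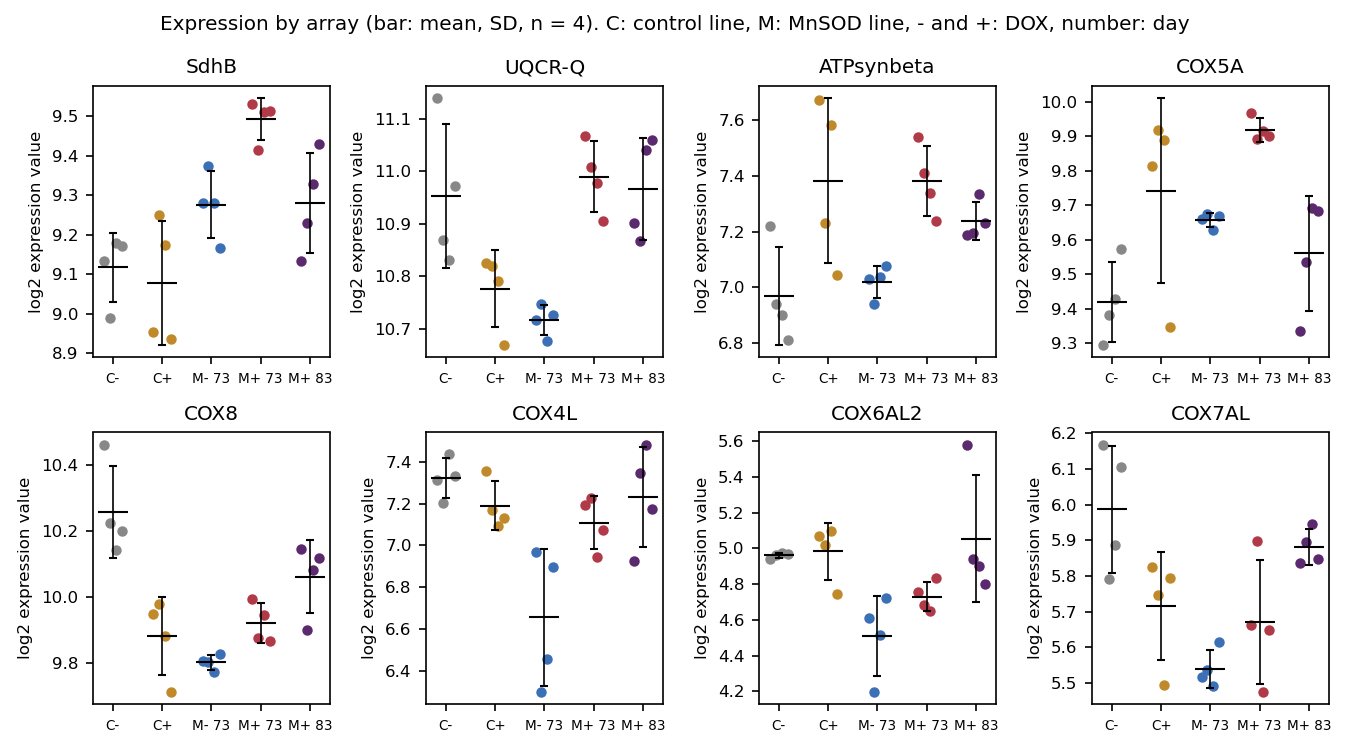
Log2 expression value (y axis, own scale in each panel) of 8 genes on every array, by group (x axis: control without and with DOX, MnSOD line without DOX at day 73 and with DOX at days 73 and 83), with the mean and SD of 4 arrays. COX4L, COX6AL2, COX7AL and COX8 are lowest in the MnSOD line without DOX, and SdhB and COX5A are highest in the MnSOD line with DOX at day 73.

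Between the lines without DOX, 4 genes were called, all lower in the MnSOD line and all of complex IV. Of all probe sets 3.33% were called lower and 3.21% higher, against 10.5% and 0% of the 38 genes. Sod2, which is outside the 38 genes, was called higher by 0.85 in the MnSOD line. COX4L differed by -0.66 (standard error 0.127, adjusted p = 0.00106), COX8 by -0.45 (standard error 0.0768, adjusted p = 0.000313), COX7AL by -0.45 (standard error 0.0925, adjusted p = 0.00209) and COX7C by -0.32 (standard error 0.0781, adjusted p = 0.00767). Each had every MnSOD -DOX array below every control -DOX array, as did 11 of the 38 genes, or 28.9%, and 10.5% of all probe sets. COX6AL2 differed by -0.45 at adjusted p = 0.0201, also with no overlap. Complex IV as a whole had a median of -0.32, its 4 like paralogs -0.45 and its 7 subunits -0.13, against -0.05 for complex II, -0.16 for complex III, -0.04 for ATP synthase and -0.01 over all probe sets. Against the other control group, these medians were -0.16 for complex IV, -0.40 for its like paralogs, -0.08 for its subunits, -0.03 for complex II, -0.03 for complex III, 0.00 for ATP synthase and 0.05 over all probe sets.

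COX8, a small membrane subunit of complex IV, was at 10.46, 10.22, 10.14 and 10.20 in control -DOX and at 9.81, 9.80, 9.77 and 9.83 in MnSOD -DOX. Control +DOX, at 9.95, 9.98, 9.88 and 9.71, overlapped the MnSOD -DOX values. In MnSOD +DOX, COX8 was at 9.99, 9.88, 9.94 and 9.87 at day 73 and at 10.14, 9.90, 10.08 and 10.12 at day 83. COX7AL was at 6.17, 5.79, 5.89 and 6.10 in control -DOX, above the 5.49 to 5.61 of MnSOD -DOX. COX7C was at 4.87, 4.84, 4.79 and 4.92 in control -DOX and at 4.53, 4.67, 4.40 and 4.52 in MnSOD -DOX, a low signal. In COX5A the order was turned, with 9.29, 9.38, 9.43 and 9.57 in control -DOX below 9.66, 9.67, 9.63 and 9.67 in MnSOD -DOX, a difference of 0.24 (adjusted p = 0.116). Against control +DOX it was -0.08 (adjusted p = 0.521).

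The line difference and the day 83 change share the 4 MnSOD -DOX arrays, so they are not 2 separate observations of COX4L and COX7AL. The COX7C call was lost when any 1 of 9 arrays was left out, namely MnSOD -DOX replicate 1, 3 or 4, MnSOD +DOX day 73 replicate 1 or 2, or any control -DOX replicate, with adjusted p up to 0.0364. COX4L, COX8 and COX7AL stayed called without any 1 array. SdhBL was gained without control -DOX replicate 1, UQCR-14L without MnSOD +DOX day 83 replicate 1 or control -DOX replicate 2, and COX6AL2 without MnSOD +DOX day 83 replicate 1. Of the 10 testis markers 7 were called lower in the MnSOD line without DOX, with a median of -0.52. Of the 8 flight muscle markers 2 were called higher, with a median of 0.39 over the 8 and Act79B lowest at 0.01. The flight muscle genes Act88F and TpnC4 were higher by 1.44 and 1.10. Of 11 gut markers 3 were called higher and 1 lower. Of 8 accessory gland markers 2 were called higher, and of 4 neuron markers 0 were called. Spermatid markers averaged 8.62 to 8.88 per array in MnSOD -DOX and 9.20 to 9.47 in control -DOX. The signal of 3' over 5' control probe sets, a measure of RNA integrity, also separated these groups, at 1.96 to 3.35 on the log2 scale in control -DOX and 1.40 to 1.80 in MnSOD -DOX. The part of these measures in the complex IV values was not tested.

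**Figure D4:**
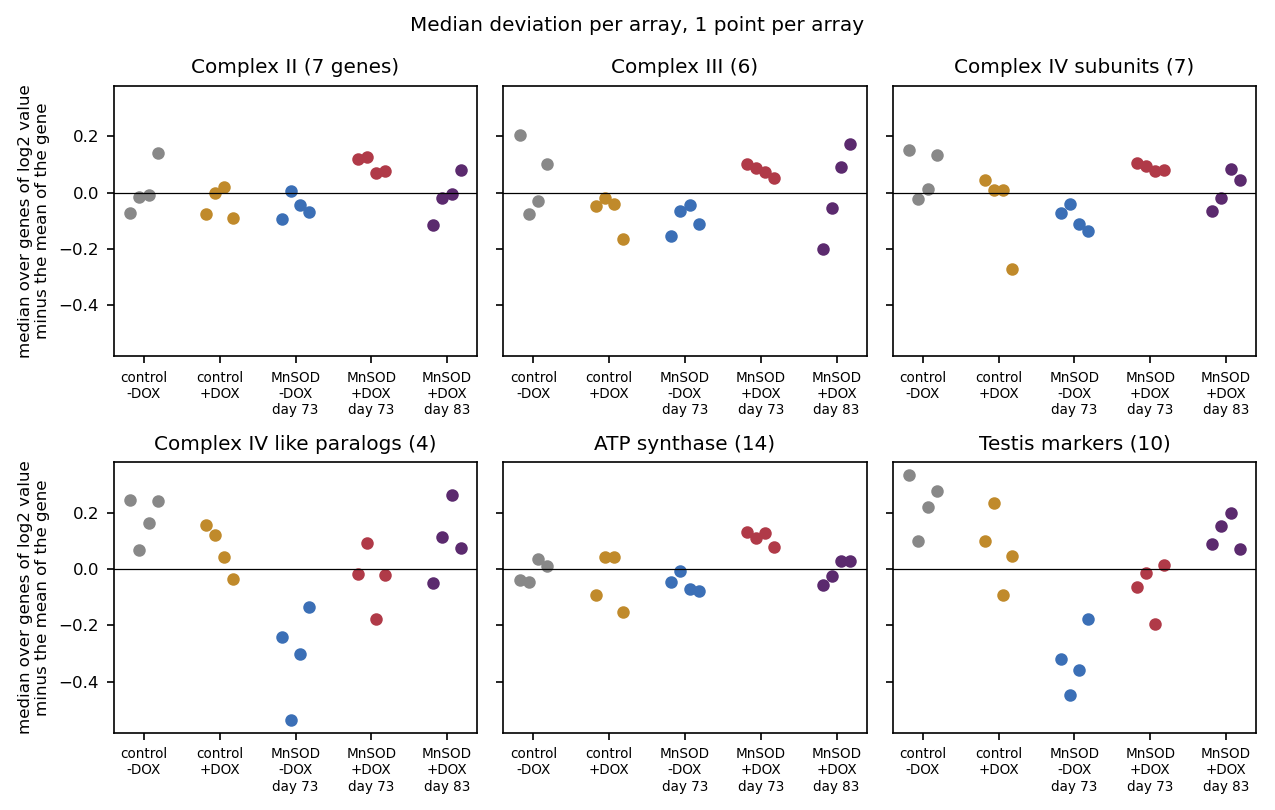
Median over the genes of each set of the log2 value minus the gene's own mean over 20 arrays (y axis, the same in all panels), 1 point per array, by group (x axis), for complexes II and III, complex IV subunits, complex IV like paralogs, ATP synthase and testis markers. The like paralogs of complex IV and the testis markers are both lowest in MnSOD -DOX, at -0.54 to -0.14 and at -0.45 to -0.18.

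DOX in the food of control flies went with few calls among these genes. By the labels, ATPsynbeta was higher by 0.42 (standard error 0.109, adjusted p = 0.00466) with DOX and COX8 lower by 0.38 (standard error 0.0768, adjusted p = 0.000732). This direction opposes the study's: other genes in its tables for this comparison have the sign turned relative to the labels, and the sources used here do not settle which is right. If the 2 control groups are exchanged, each value keeps its size and turns its sign; this alternative was added once the data had been seen. Called higher were 12.1% of all probe sets and called lower 14.1%, against 2.63% of the 38 genes in each direction. The 38 genes had a median of -0.07, against -0.05 over all probe sets. The 3' over 5' signal also separated the 2 control groups, at 1.05 to 1.88 with DOX against 1.96 to 3.35 without. Its part in these changes, and in the corrected changes below that use the same arrays, was not tested.

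ATPsynbeta was at 7.22, 6.94, 6.90 and 6.81 in control -DOX and at 7.67, 7.23, 7.58 and 7.05 in control +DOX. The groups overlapped, and the call was lost without control -DOX replicate 2, 3 or 4 or control +DOX replicate 1 or 3, with a change of at least 0.32 and an adjusted p of up to 0.0293. Control +DOX replicates 1 and 3, with low spike-in means, held the 2 high values, and with only replicate 4 left in the group the change was 0.08. The COX8 difference, with no overlap, was -0.54 in that fit (adjusted p = 0.0282), where the spread of the lone array is taken from the other groups. Cyt-c1 and COX5A had 0.36 and 0.32 with DOX (adjusted p = 0.0288 and 0.0137), and COX5A was called without MnSOD +DOX day 83 replicate 1, control -DOX replicate 4 or control +DOX replicate 4. Without that last array Cyt-c1 and ATPsynCF6 were called too, at 0.47 and 0.40, and without control -DOX replicate 2 COX7AL was, at -0.34. The 2 probe sets of ATPsynC disagreed, with 0.20 (adjusted p = 0.0789) on the one kept and -0.32 (adjusted p = 0.00272) on the other.

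Subtracting the change of control flies from that of the MnSOD line left 3 genes called higher at day 73 and 6 at day 83, with 0 lower. At day 73 these were SdhBL at 0.43 (standard error 0.0964, adjusted p = 0.00473), UQCR-Q at 0.45 (standard error 0.102, adjusted p = 0.00498) and COX8 at 0.49 (standard error 0.109, adjusted p = 0.00402). Of all probe sets 2.22% were called higher and 3.78% lower, against 7.89% and 0% of the 38 genes. At day 83 they were COX4L at 0.71 (adjusted p = 0.00496), COX8 at 0.63 (adjusted p = 0.000191), COX7AL at 0.61 (adjusted p = 0.0013), UQCR-Q at 0.43 (adjusted p = 0.00322), SdhBL at 0.42 (adjusted p = 0.00222) and COX7C at 0.41 (adjusted p = 0.00794). Here 8.13% of all probe sets were called higher and 9.49% lower, against 15.8% and 0% of the 38 genes. The 2 corrected contrasts share 12 arrays, and 3 genes were called in both. At day 73, 33 of the 38 corrected estimates were above 0 with a median of 0.21, against 8348 of 14010 probe sets and 0.07. At day 83, 27 of the 38 were above 0 with a median of 0.11, against 7122 probe sets and 0.01. With the control groups exchanged, 31 and 25 of the 38 were above 0.

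All 9 of these corrected calls rest on the control labels. With the control groups exchanged, SdhBL was at 0.04 and 0.04 at the 2 ages, UQCR-Q at 0.10 and 0.07, COX8 at -0.26 and -0.12, and COX4L, COX7AL and COX7C at 0.44, 0.07 and 0.09 at day 83, none called. In their place ATPsynbeta was called at 0.78 at day 73 (adjusted p = 0.0027) and 0.63 at day 83 (adjusted p = 0.00461), and COX5A at 0.58 at day 73 (adjusted p = 0.00713). As labelled, ATPsynbeta had -0.05 and -0.20 and COX5A -0.06 and -0.42 at the 2 ages, none called. The paper lists ATPsynbeta as higher at both ages and COX5A as higher only at the same chronological age, as in the exchanged calls. In the line difference without DOX, the exchange left COX4L called at -0.53, while COX8, COX7AL and COX7C were at -0.08, -0.18 and -0.16 and no longer called, and COX6AL2 at -0.47 and ATPsynCF6L at -0.36 were called. The direct day 73 and day 83 changes of the MnSOD line do not use the control arrays except in the estimate of spread.

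**Figure D5:**
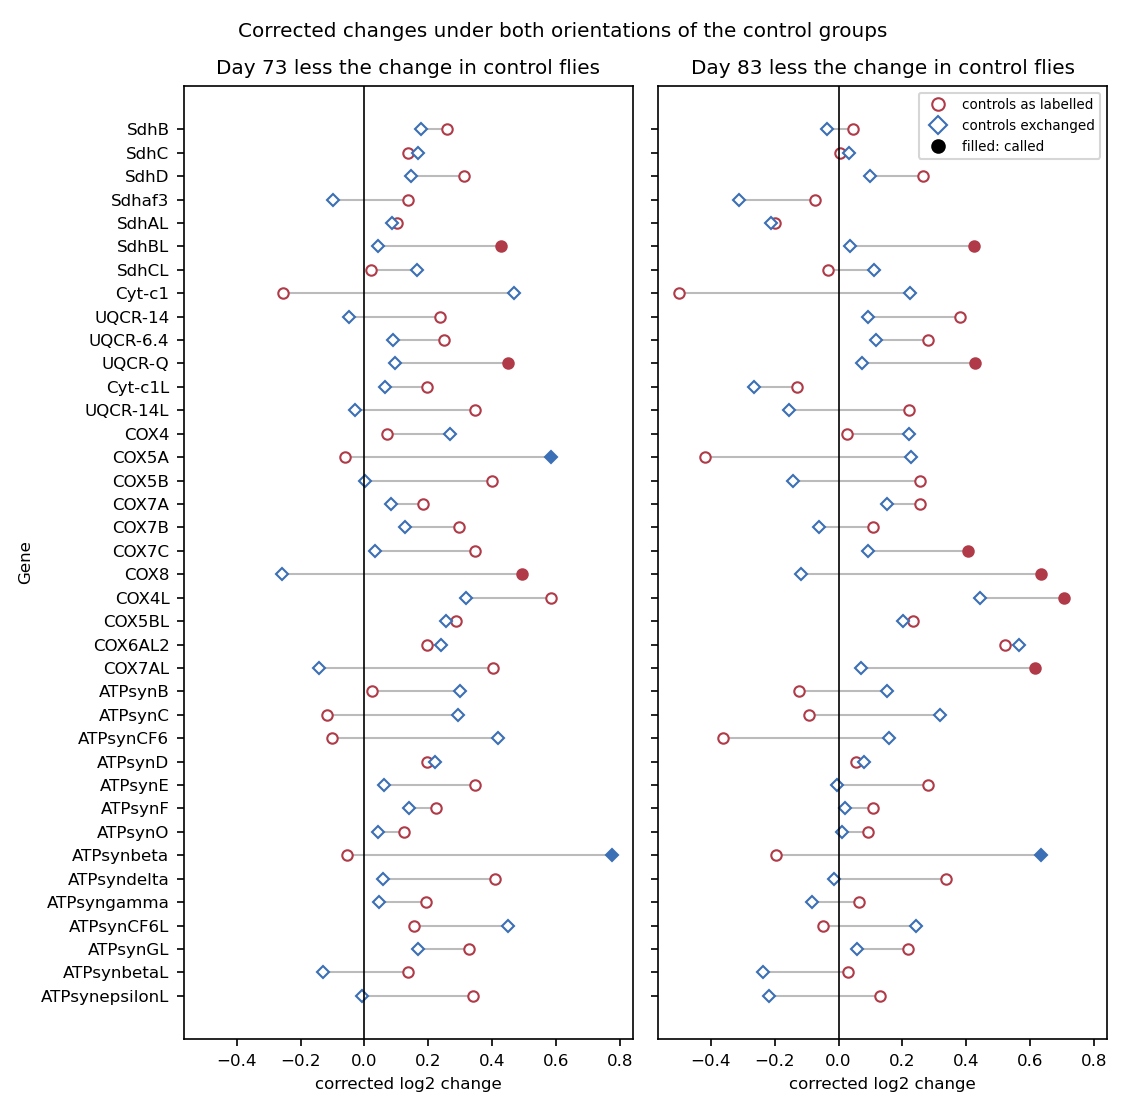
Corrected log2 change (x axis: change of the MnSOD line with DOX minus that of control flies) of each of the 38 genes (y axis) at day 73 and day 83, with the control groups as labelled (circles) and exchanged (diamonds), filled where called. COX8, ATPsynbeta, COX5A and Cyt-c1 are among the genes that lie on opposite sides of 0 under the 2 orientations at day 73, as are ATPsynC, ATPsynCF6, COX7AL and UQCR-14.

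At day 83 against day 73, both with MnSOD on, 1 of the 38 genes was called. Cyt-c1L was lower by 0.33 (standard error 0.0771, adjusted p = 0.00914), at 6.93, 6.95, 6.99 and 6.90 at day 73 and 6.32, 6.68, 6.79 and 6.68 at day 83. Of all probe sets 2.74% were called lower and 0.949% higher, against 2.63% and 0% of the 38 genes, shares near the background. The call was kept only without control -DOX replicate 1, control +DOX replicate 4 or MnSOD +DOX day 83 replicate 3, and was lost without any 1 of the other 17 arrays, with adjusted p up to 0.0292. Without MnSOD +DOX day 83 replicate 1, the lowest value, the difference was -0.23. The 3' over 5' signal also separated these groups, at 1.72 to 2.18 on the day 83 arrays and 1.51 to 1.70 on the day 73 arrays. Its part in the differences between the days was not tested.

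COX5A, a subunit at the matrix face of complex IV, was at 9.97, 9.89, 9.91 and 9.90 at day 73 and at 9.34, 9.54, 9.69 and 9.68 at day 83 with MnSOD on. The groups did not overlap, and the difference was -0.36 (standard error 0.101, adjusted p = 0.0239), which was called without control +DOX replicate 4. In control +DOX it was at 9.81, 9.92, 9.89 and 9.35. By complex, the medians of the day 83 against day 73 difference were -0.13 for complex II, -0.07 for complex III, 0.06 for complex IV and -0.12 for ATP synthase. After centring each array on its median, which moved every value up by 0.08, they were -0.06, 0.00, 0.14 and -0.05 in the same order. Before centring 9 of the 38 genes were above 0, against 41.1% of all probe sets, and after it 18 of the 38, against 58.1%. For 9 of the 38 genes, or 23.7%, every day 83 array was below every day 73 array, against 14.8% of all probe sets: SdhAL, Cyt-c1L, COX5A, COX7B, ATPsynCF6, ATPsyngamma, ATPsynCF6L, ATPsynbetaL and ATPsynepsilonL.

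Over the 7 contrasts, 9 of the 38 genes, or 23.7%, were called in 1 or more, against 37.7% of all probe sets, and 5 of these 9 belong to complex IV. With the control groups exchanged, 7 of the 38, or 18.4%, were called against 41.6% of all probe sets, 4 of the 7 in complex IV. In that tally SdhBL, UQCR-Q, COX7AL and COX7C were lost and COX5A and ATPsynCF6L gained. The like paralogs resemble their subunits in sequence, and whether a probe set also takes signal from the relative was not examined.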

How the data were processed

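Whole adult males had been profiled on 20 Affymetrix DrosGenome1 arrays, 4 per group, and groups were taken from the sample labels. The deposited table holds log2 values that the authors normalized with RMA in the affy package; its version and the intensities before RMA were not used here. RMA gives no detection call, so low probe sets are known only by their rank. All 20 columns were used. The number of arrays, not depth, limits the precision.

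In R 4.3.3 with limma 3.58.1, all 14010 probe sets entered 1 fit with a mean for each of 5 groups, and p-values were adjusted by Benjamini-Hochberg within each of 7 contrasts. The study's thresholds were kept: adjusted p below 0.01, fold at least 1.2. Python 3.11.15 (matplotlib 3.10.9, numpy 2.4.6, pandas 2.3.3) served for tables and figures. The steps were tested on simulated data.

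Gene names came from the platform annotation, updated through gene identifiers. Members, gene lists and tests were chosen with earlier results of these data known. Every member was to be named, with values for up to 6 called members per contrast and direction, and all 20 values for the member of each complex with the largest F over the groups. Other members printed array by array were chosen after their values were seen.

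Alternatives were a replicate block, only the groups of a contrast in the fit, the lowest 40% of probe sets left out, median centring, array weights, no fold minimum, the lower probe set of a gene and each array left out. Exchanged control groups, control +DOX replicates 1 to 3 left out together and a spike-in covariate were chosen after seeing the data, as was the count of estimates above 0. Sequences and coordinates were not used here.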

Additional observations from a re-analysis of the deposited data

Results flagged for a closer look

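SdhBL in control -DOX had 1 array far from the others, replicate 1 at 7.53 against 7.74 to 7.75 in replicates 2 to 4. It was the only such array among 55 sets of 4 arrays examined in the 11 genes printed array by array. Chance gives about 1 in 20, so 1 flag among 55 sets is no more than chance gives. Leaving this array out moved the line difference of SdhBL without DOX from -0.23 to -0.28 and made it a call.

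In 9 cases the change with DOX differed between the MnSOD line and the control line by a test of the difference itself. At day 73 these were SdhBL (0.43), UQCR-Q (0.45) and COX8 (0.49). At day 83 they were SdhBL (0.42), UQCR-Q (0.43), COX7C (0.41), COX8 (0.63), COX4L (0.71) and COX7AL (0.61). None of the 9 was called with the control groups exchanged.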

How the results depend on the processing

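The day 73 direction held for 36 to 38 of 38 genes without any 1 array. That count has no threshold, so it cannot be set against the firmness of the calls. Only the 8 arrays of that comparison can change it, and the 38 genes share these arrays. Without any 1 array, the count of genes higher with DOX in control flies was 0 to 4 (1 with all arrays) and lower 1 to 2. At day 83 it was 0 to 3 higher. In the corrected contrasts it was 0 to 6 higher at day 73, and 4 to 6 higher and 0 to 2 lower at day 83. Between days 83 and 73 it was 0 to 2 lower, and between the lines 3 to 6 lower. Of 360 single values without 1 array, 290 stayed called and 70 did not. In the corrected day 73 contrast, SdhBL was lost without MnSOD -DOX replicate 2 or 3, MnSOD +DOX day 73 replicate 3, control -DOX replicate 2 or 3 or control +DOX replicate 3. UQCR-Q was lost without MnSOD -DOX replicate 1 or 3, MnSOD +DOX day 73 replicate 1, 2 or 3 or control +DOX replicate 3, and COX8 without MnSOD -DOX replicate 3 or MnSOD +DOX day 73 replicate 3. At day 83 COX4L was lost without MnSOD -DOX replicate 2 or 3, MnSOD +DOX day 83 replicate 2 or 3 or replicate 3 of either control group (adjusted p up to 0.0139), and COX7C without 12 arrays (up to 0.0222). ATPsynE, ATPsyndelta and COX5B were gained at day 73 without MnSOD +DOX day 83 replicate 1, ATPsynE also without control -DOX replicate 2, and at day 83 COX5A (-0.55) and ATPsynCF6 (-0.51) without control +DOX replicate 4 and UQCR-14 without control -DOX replicate 2 or 3. With array weights, counts in control flies were 4 up and 3 down, with 4 higher at day 73, 5 higher at day 83, 8 higher in the corrected day 73 contrast and 2 lower in the corrected day 83 contrast. With only the groups of a contrast in the fit, they were 0 and 0 in control flies, 2 higher at day 73, 1 higher at day 83 and 0 lower between the days. With centred arrays, they were 2 higher and 1 lower in control flies, 6 higher at day 83, 0 in the corrected day 73 contrast and 0 lower between the days. Without the lowest 40% of probe sets, which hold COX6AL2 and COX7C, 1 was higher at day 83. The lower probe set of ATPsynC gave 2 lower in control flies. Without control +DOX replicates 1 to 3, counts were 0 and 0 in control flies, 0 in the corrected day 73 contrast and 1 in the corrected day 83 contrast. The spike-in covariate gave 0 and 0 in control flies and 2 lower between the days. With the control groups exchanged, the corrected day 83 contrast had 1 higher, and COX8 turned to -0.26 and -0.12 in the corrected contrasts. The cause was not tested.

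Replicate numbers did not pair the samples: of 40 same-number pairs 6 had correlated deviations over 0.1, and 6 of 20 arrays matched their own number best. With the replicate block, 0 were lower between the days (Cyt-c1L at adjusted p = 0.0121), and COX7C was lost in the corrected day 83 contrast (0.0115) and between the lines (0.0118), while the other 15 single calls were kept.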
